A study of Mus musculus with 6 samples.

Results

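Enzymes that handle arginine, tryptophan and nitric oxide were followed in TC-1 cells, a mouse line, after treatment with the cytokine interferon-gamma (IFN-gamma). The 9 members (Nos2, Gch1, Ass1, Arg1, Arg2, Ido1, Ido2, Kynu and Wars) were the rows of the count table with these gene symbols, 9 of 23282 rows. They were listed by function, with earlier results of these data known. TC-1 is described in the labels as lung adenocarcinoma, and as background it derives from mouse lung cells transformed with papillomavirus oncogenes and activated ras. Cells were given murine IFN-gamma at 20 ng/ml for 72 h (3 libraries) or were left untreated for the same time (3 libraries). Both groups are the same line, grown in RPMI with fetal bovine serum and antibiotics, and no genetic change separates them. Nothing in the labels says that the replicates were separate cultures. The p-values set group differences only against the spread among these libraries, estimated with help from all tested genes, and that spread may be technical.

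As background, inducible nitric oxide synthase (encoded by Nos2) turns arginine into citrulline and nitric oxide, and it needs tetrahydrobiopterin, whose synthesis starts with GTP cyclohydrolase (Gch1). Argininosuccinate synthase (Ass1) begins the return of citrulline to arginine, while the arginases Arg1 (cytosolic) and Arg2 (mitochondrial) split arginine into ornithine and urea. The dioxygenases Ido1 and Ido2 open the tryptophan ring on the way to kynurenine, kynureninase (Kynu) acts further along that route, and Wars charges tRNA with tryptophan. In macrophages and many tumour cells IFN-gamma is known to induce Nos2, Gch1, Ido1 and Wars.

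Total gene counts were between 8511379 and 10861336 in IFN-gamma libraries and between 7302687 and 9350991 in untreated libraries. Levels are given as raw counts or as CPM (counts per 1000000, with library totals scaled by edgeR's TMM factors), with mean ± SD over n = 3 libraries. Changes are log2 fold changes ± standard error, IFN-gamma over untreated, with adjusted p from edgeR's quasi-likelihood test over the 12191 genes with enough counts to be tested. A gene passed the test at an adjusted p under 0.05. The groups separated along the first principal component of log2 CPM, with 63.9% of the variance. Markers of lung epithelium were scarce for a line with this label: Sftpb and Napsa had 0 counts in all 6 libraries, Epcam had 0 counts in the IFN-gamma group and 2 in the untreated group, and 3 of 10 listed epithelial markers could be tested. The keratin gene Krt19 was the most abundant of them and fell to 8.04 ± 1.51 CPM in IFN-gamma libraries, against 14.1 ± 2.06 CPM in untreated libraries (SD, n = 3 each; log2 fold change -0.81 ± 0.20, edgeR adjusted p = 0.00299). Summed, the 10 epithelial markers had between 9.70 and 11.96 CPM in IFN-gamma libraries and between 16.1 and 18.8 CPM in untreated libraries. Muc1 had 54 counts in the IFN-gamma group and 24 in the untreated group and did not pass (edgeR adjusted p = 0.193), and Krt8 had 22 counts in the IFN-gamma group and 39 in the untreated group and did not pass (edgeR adjusted p = 0.405).

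In IFN-gamma-treated TC-1 cells, against untreated cells, transcripts of Nos2, Ido2, Wars and Gch1 rose. The fold changes were 14.6 for Nos2, 8.32 for Ido2, 6.09 for Wars and 1.38 for Gch1. Arg2 had groups that overlapped and did not pass the test. Ass1 and Arg1 had at most 8 counts in any library, and Ido1 and Kynu had 0 counts in all 6. Of the 9 members 5 had enough counts to be tested, of which 4 were higher and 0 lower, against 9.88% of all tested genes higher and 7.56% lower. Nos2 and Ido2 reached the count minimum through the treated libraries alone, so the count of 4 does not speak for the members left out. The members were also chosen with earlier results of these data known, so this count is no test of the list. In the 4 that rose, all IFN-gamma libraries lay above all untreated ones in CPM, as they did in 16.2% of all tested genes.

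**Figure D1:**
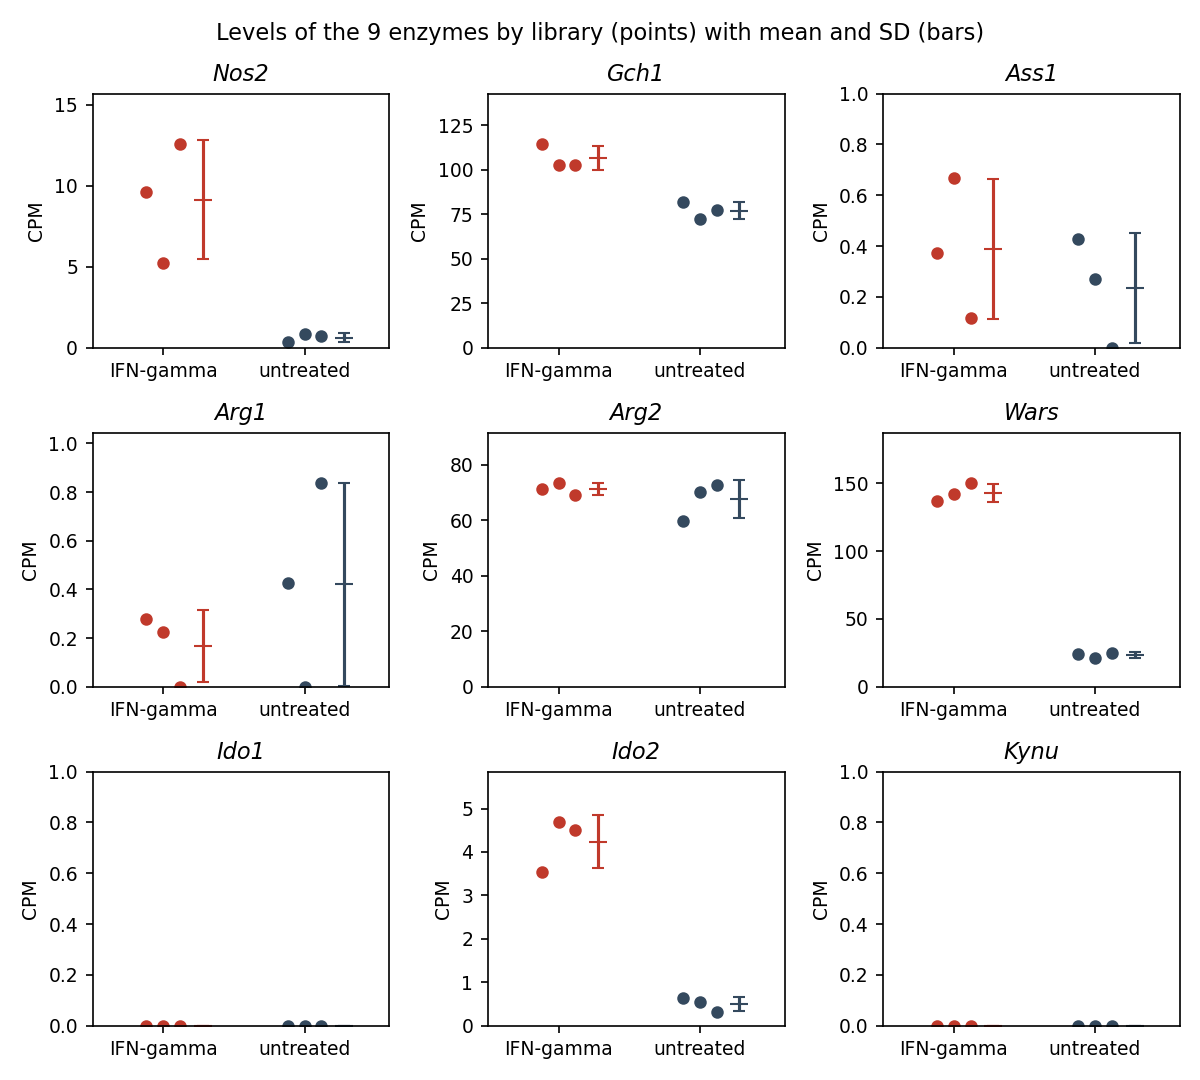
Level of each of the 9 enzymes in CPM (linear axis from 0, own scale per gene) in IFN-gamma libraries (left) and untreated libraries (right); points are libraries in the order replicate 1 to 3, and bars give the mean and SD (n = 3). Nos2, Gch1, Wars and Ido2 have no overlap between groups, Arg2 overlaps, and Ido1 and Kynu are at 0.

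Sequence from the promoter table of RefSeq (GRCm38.p6) was found for 2 of the 9 members, Gch1 and Ass1. The 250 bases before the start of Gch1 are shown because Gch1 is the member with a listed promoter that rose. They lie at chr14:47189414-47189663 on the minus strand and are written 5′ to 3′ with matches to the searched motifs in capitals.
Gch1: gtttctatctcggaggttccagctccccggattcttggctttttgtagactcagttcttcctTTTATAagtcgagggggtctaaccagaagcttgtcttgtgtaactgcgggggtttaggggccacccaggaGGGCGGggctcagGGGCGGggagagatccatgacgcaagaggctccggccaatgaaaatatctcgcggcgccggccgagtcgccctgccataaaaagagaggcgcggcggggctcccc
Both strands were searched for the gamma-activated sequence (TTCNNNGAA), the interferon-stimulated response element (GAAA, any 2 bases, GAAA), the TATA motif (TATAAA) and the GC box (GGGCGG). The window held 2 GC boxes, starting 118 and 105 bases before the gene start, and 1 TATA motif on the opposite strand 188 bases before it, and these matches did not overlap. Of all 32851 promoters in the table, 32.7% hold a GC box and 12.4% a TATA motif in the same 250-base window. No match to the gamma-activated sequence or the response element is in the window, letters that are present in 7.02% and 2.98% of all promoters. The labels name no mouse build for the counts, so these positions belong to the reference and not to the count table.

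Nos2, the nitric oxide synthase that is controlled mainly through its transcription, had 103, 47 and 106 counts in the IFN-gamma libraries 1, 2 and 3, against 3, 6 and 7 counts in untreated replicates 1, 2 and 3. Every treated library was above every untreated one, and IFN-gamma replicate 2 was the lowest of the treated libraries. In CPM, Nos2 averaged 9.12 ± 3.68 in IFN-gamma libraries and 0.622 ± 0.264 in untreated libraries (SD, n = 3 each). The log2 fold change was 3.87 ± 0.41 (edgeR adjusted p = 7.8e-10), a 14.6-fold rise with a 95% interval of 8.36 to 25.6 from the standard error. The SD was 40.3% of the mean in IFN-gamma libraries and 42.5% in untreated libraries. By log2 fold change Nos2 ranked 62 of 12191 tested genes.

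Nos2 is also a known macrophage gene, and the list of 13 macrophage markers was examined beside it. Summed, these markers had between 75.0 and 82.1 CPM in IFN-gamma libraries and between 39.5 and 49.2 CPM in untreated libraries. Without Mpeg1, a pore-forming protein gene that rose after treatment (762 counts in the IFN-gamma group and 2 in the untreated group), the sums were between 47.2 and 57.3 CPM in IFN-gamma libraries and between 39.5 and 49.0 CPM in untreated libraries. Of the 3 markers tested, Mpeg1 and Cd68 were higher and Cd14 did not pass. Cd14 had 39.4 ± 6.53 CPM in IFN-gamma libraries and 37.9 ± 4.33 CPM in untreated libraries. Most of the sums without Mpeg1 were therefore Cd14, so they mainly show the level of that gene. Cd68, which stayed in those sums, had 10.7 ± 2.28 CPM in IFN-gamma libraries and 6.36 ± 1.24 CPM in untreated libraries (log2 fold change 0.73 ± 0.23, edgeR adjusted p = 0.0229). The 10 markers not tested had few counts or none, with Fcgr1, C1qa and C1qb at 0 in all libraries. In the IFN-gamma and untreated groups, the leukocyte gene Ptprc had 2 and 0 counts, Adgre1 1 and 0, Itgam 3 and 0 and Lyz2 1 and 0. In the same order, Tyrobp had 2 and 3 counts, Csf1r 6 and 7 and Mrc1 16 and 9. Markers on other lists also moved with treatment. The neutrophil marker S100a8 had 6.41 ± 0.722 CPM in IFN-gamma libraries and 2.01 ± 0.718 CPM in untreated libraries (log2 fold change 1.66 ± 0.34, edgeR adjusted p = 0.00036), while S100a9 had 0 counts in all libraries. The neutrophil list summed to between 5.95 and 7.22 CPM in IFN-gamma libraries and between 1.46 and 2.99 CPM in untreated libraries. Of 6 mesenchymal markers 1 was higher (Acta2, 0.60) and 4 were lower (Col3a1, -1.83; Fn1, -0.73; Vim, -0.49; Col1a1, -0.47), and the list summed to between 6875 and 7282 CPM in IFN-gamma libraries and between 9404 and 9681 CPM in untreated libraries. Of 2 tested dendritic cell markers 0 were higher and 0 lower (sums between 3.07 and 4.50 CPM in IFN-gamma libraries and between 2.44 and 5.35 CPM in untreated libraries). No T or NK cell or endothelial marker had enough counts to be tested: the T or NK cell sums reached at most 0.355 CPM in IFN-gamma libraries and 0.136 CPM in untreated libraries, and the endothelial sums at most 1.303 CPM in IFN-gamma libraries and 2.30 CPM in untreated libraries. The background for the markers called on each list is 9.88% higher and 7.56% lower over all genes tested. The 4 of 6 mesenchymal markers that were lower are above that share. With 2 dendritic cell markers tested, 0 called is near it and is no result about the list. The part of these markers in the changes of the 9 enzymes was not tested.

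The other nitric oxide synthases did not follow Nos2. Nos3, the endothelial form, was lower, with 45.9 ± 5.50 CPM in IFN-gamma libraries and 62.5 ± 5.57 CPM in untreated libraries (SD, n = 3 each; log2 fold change -0.45 ± 0.10, edgeR adjusted p = 0.0014). Nos1, the neuronal form, had 18 counts in the IFN-gamma group and 18 in the untreated group and was not tested. The number of Nos2 counts per 100 Nos3 counts in the same library was 21.5, 10.1 and 30.5 in IFN-gamma replicates 1, 2 and 3, against 0.550, 1.35 and 1.06 in untreated replicates 1, 2 and 3. This ratio does not depend on library scaling, and its groups did not overlap. An exact two-sided permutation test over the libraries gave p = 0.1 for it (adjusted p = 0.1 over 3 such ratios). That is the smallest p that 3 against 3 libraries allow, so the test could not reach 0.05. Both the higher Nos2 and the lower Nos3 enter this ratio. Of the 7 tested genes among the other synthases and the proteins that restrain them, 1 was higher and 1 lower, with a median log2 fold change of 0.09, beside 9.88% higher, 7.56% lower and a median of -0.01 over all genes tested. These counts are near that background. The higher one was Prmt1, an arginine methyltransferase whose products are precursors of synthase inhibitors, at 379 ± 40.3 CPM in IFN-gamma libraries and 333 ± 16.3 CPM in untreated libraries (log2 fold change 0.18 ± 0.07, edgeR adjusted p = 0.047). The Prmt1 call was lost in 8 of 14 alternative fits, with adjusted p up to 0.246.

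Gch1, the first and rate-limiting enzyme of tetrahydrobiopterin synthesis, had 1229, 922 and 868 counts in the IFN-gamma libraries 1, 2 and 3, against 764, 532 and 740 counts in untreated replicates 1, 2 and 3. Scaled for depth these were 114, 103 and 103 CPM in IFN-gamma libraries, against 81.7, 72.2 and 77.3 CPM in untreated libraries. All treated libraries were higher, the lowest at 103 CPM against 81.7 CPM in the highest untreated library. The SD was 6.66 CPM in IFN-gamma libraries and 4.76 CPM in untreated libraries (n = 3 each). The log2 fold change was 0.47 ± 0.08 (edgeR adjusted p = 3.1e-05), or 1.38-fold with a 95% interval of 1.24 to 1.55, far below the fold change of Nos2. Gch1 ranked 974 of 12191 by log2 fold change. Unlike Nos2, Gch1 already had 77.1 ± 4.76 CPM in untreated cells (SD, n = 3).

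Of 6 tested genes for the later steps of cofactor synthesis and its recycling, 0 were higher and 1 lower, with a median log2 fold change of -0.06. So few genes are near the 9.88% higher and 7.56% lower over all genes tested. The lower one was Qdpr, which regenerates tetrahydrobiopterin after use, at 106 ± 9.01 CPM in IFN-gamma libraries and 125 ± 3.26 CPM in untreated libraries (log2 fold change -0.24 ± 0.08, edgeR adjusted p = 0.023). The Qdpr call was lost without IFN-gamma replicate 1 (adjusted p = 0.186), untreated replicate 2 (0.0964) or untreated replicate 3 (0.0655). Pts, which carries out the second step, had -0.56 ± 0.25 (edgeR adjusted p = 0.125). Spr, which completes the cofactor, had -0.03 ± 0.10, and Gchfr, the feedback regulator that binds GTP cyclohydrolase, had 0.11 ± 0.18, with edgeR adjusted p of 0.882 and 0.738. The number of Gch1 counts per 100 Gchfr counts was 710, 750 and 700.0 in IFN-gamma replicates 1, 2 and 3, against 626, 419 and 685 in untreated replicates 1, 2 and 3. The groups did not overlap, although untreated replicate 3 came close to the treated libraries, and the exact two-sided permutation test gave p = 0.1 (adjusted p = 0.1), its smallest possible value.

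**Figure D2:**
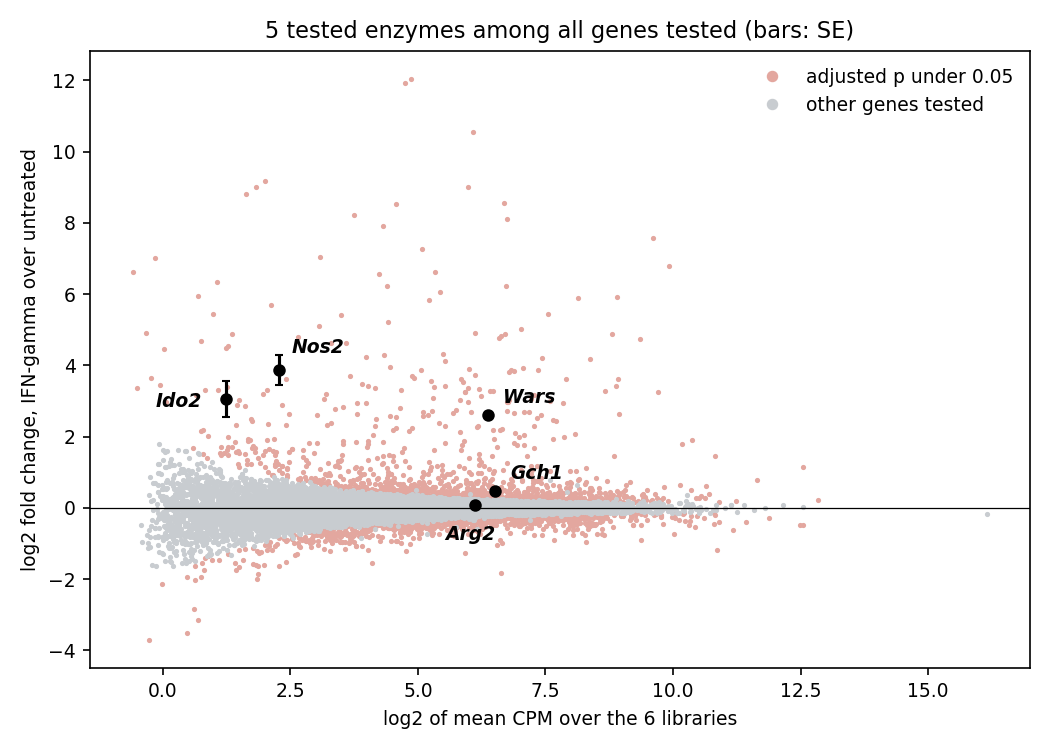
Log2 fold change (IFN-gamma over untreated) against the log2 of the mean CPM for the 12191 genes tested; black points with SE bars are the 5 tested enzymes. Nos2 (3.87), Ido2 (3.06) and Wars (2.61) stand in the upper range, Gch1 (0.47) among called genes of smaller change, and Arg2 (0.08) at the centre.

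Of the arginases and the citrulline-recycling enzyme, Arg2 alone had enough counts to be tested. Arg2 had 767, 657 and 584 counts in the IFN-gamma libraries 1, 2 and 3, against 559, 516 and 697 counts in untreated replicates 1, 2 and 3. In CPM the groups overlapped, with 71.3 ± 2.05 in IFN-gamma libraries and 67.5 ± 6.87 in untreated libraries (SD, n = 3 each). The log2 fold change was 0.08 ± 0.09 (edgeR adjusted p = 0.633), and the 95% interval of the fold change was 0.932 to 1.20, so a rise of the size seen in Nos2, Ido2 or Wars lies outside it. In the GENCODE M21 annotation 401 of the 1428 exon bases of Arg2 overlap exons of Vti1b and Gm48780 on the opposite strand. The sources used here do not say whether strand was used in counting. As 1 of the 2 kits named is for mRNA 3' ends, the share of Arg2 reads from these bases may differ from their share of the exons. Vti1b itself had 95.5 ± 2.01 CPM in IFN-gamma libraries and 89.9 ± 3.92 CPM in untreated libraries (log2 fold change 0.09 ± 0.08, edgeR adjusted p = 0.523).

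Arg1, the arginase of liver and of some macrophages, had 3, 2 and 0 counts in the IFN-gamma libraries 1, 2 and 3, against 4, 0 and 8 counts in untreated replicates 1, 2 and 3. A library of each group was at 0 and the groups overlapped. The ratio of the group sums, 5 counts over 12 and scaled by library totals, was 0.378 with an exact (Clopper-Pearson) 95% interval of 0.104 to 1.15. That interval covers counting error only and includes a ratio of 1. The ratio was 0.728 without untreated replicate 3, which held 8 of the 12 untreated counts, and 0.244 (interval 0.0265 to 1.09) without IFN-gamma replicate 1. Without untreated replicate 2, which held 0 counts, it was 0.271 with an interval of 0.0748 to 0.827, so leaving out 1 library changed whether the interval includes 1.

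Ass1 had 4, 6 and 1 counts in the IFN-gamma libraries 1, 2 and 3, against 4, 2 and 0 counts in untreated replicates 1, 2 and 3. The groups overlapped and the ratio of the sums was 1.66, with an exact 95% interval of 0.563 to 5.47. Leaving out untreated replicate 1 gave 3.18 and leaving out untreated replicate 3 gave 1.07, so single libraries moved it. In GENCODE M21, 43.3% of the 30-base windows of the Ass1 transcripts also occur in the transcript of Gm5424, so reads from them could be counted on either row. The Gm5424 row had 564 counts in the IFN-gamma group and 484 in the untreated group, with 20.1 ± 2.05 CPM in IFN-gamma libraries and 18.1 ± 3.26 CPM in untreated libraries (log2 fold change 0.14 ± 0.16, edgeR adjusted p = 0.618). How the counting divided reads between these rows was not tested.

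Among the other genes of arginine supply and use, 2 of 12 tested members were higher and 0 lower, with a median log2 fold change of 0.15. These counts are near the 9.88% higher and 7.56% lower over all genes tested and are no result about the list. Slc7a2, a cationic amino acid transporter that brings arginine into cells, rose to 18.4 ± 1.98 CPM in IFN-gamma libraries, against 11.4 ± 1.00 CPM in untreated libraries (SD, n = 3 each; log2 fold change 0.69 ± 0.17, edgeR adjusted p = 0.0027). Sat1, which acetylates polyamines, rose to 497 ± 19.2 CPM in IFN-gamma libraries, against 401 ± 24.2 CPM in untreated libraries (log2 fold change 0.31 ± 0.06, edgeR adjusted p = 9.1e-05). Both calls held in all 14 alternative fits. The main transporter gene Slc7a1 had 0.19 ± 0.08 (edgeR adjusted p = 0.0786). Asl, which completes arginine synthesis after Ass1, had 6.39 ± 0.968 CPM in IFN-gamma libraries and 9.11 ± 1.40 CPM in untreated libraries and did not pass (-0.51 ± 0.24, edgeR adjusted p = 0.14). Odc1, the first enzyme of polyamine synthesis from ornithine, had 0.16 ± 0.07 (edgeR adjusted p = 0.0827).

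On the tryptophan side the dioxygenases differed. Ido1, which IFN-gamma induces in many cell types, had 0 counts in each of the 6 libraries. At this depth 0 counts allow up to 0.105 CPM in the IFN-gamma group and 0.116 CPM in the untreated group (3 counts over the group's total, for counting error only). Ido2, its paralog, had 38, 42 and 38 counts in the IFN-gamma libraries 1, 2 and 3, against 6, 4 and 3 counts in untreated replicates 1, 2 and 3. All treated libraries were above all untreated ones and close to each other. In CPM Ido2 averaged 4.24 ± 0.617 in IFN-gamma libraries and 0.499 ± 0.168 in untreated libraries (SD, n = 3 each), a log2 fold change of 3.06 ± 0.50 (edgeR adjusted p = 1.1e-05) or 8.32-fold with a 95% interval of 4.20 to 16.5. This interval overlaps that of Nos2, and a difference between their fold changes was not tested. The transcripts of Ido1 and Ido2 in GENCODE M21 share 0 windows of 30 bases, so exact matches of that length would not be shared between them. Matches with mismatches were not examined. Of the Ido2 windows, 0.387% also occur in transcripts of other genes.

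Kynu also had 0 counts in all 6 libraries, with the same limits as Ido1. Of the other kynurenine-route genes, the monooxygenase gene Kmo and the dioxygenase gene Haao had 0 counts in all libraries, as did Il4i1, an amino acid oxidase gene outside that route. Tdo2, the liver enzyme with the activity of Ido1, had 6 counts in the IFN-gamma group and 5 in the untreated group. The kynurenine aminotransferase genes Ccbl1 and Ccbl2 were detected: Ccbl1 had 97 counts in the IFN-gamma group and 120 in the untreated group, Ccbl2 had 114 in the IFN-gamma group and 87 in the untreated group, and neither passed (edgeR adjusted p = 0.452 and 0.72). Of the 17 genes of the tryptophan and kynurenine list 8 could be tested, of which 0 were higher and 0 lower, beside 9.88% and 7.56% over all genes tested, with a median log2 fold change of 0.03. Slc3a2, a subunit of the transporter that imports tryptophan and other large amino acids, had the highest level, with 394 ± 13.5 CPM in IFN-gamma libraries and 356 ± 14.6 CPM in untreated libraries (log2 fold change 0.15 ± 0.06, edgeR adjusted p = 0.0815). Afmid, the formamidase that follows the dioxygenases, had -0.30 ± 0.12 (edgeR adjusted p = 0.0979). Ahr, the receptor that kynurenine can activate, had 0.02 ± 0.09 (edgeR adjusted p = 0.902). In bulk RNA from these cultures, fewer cells that express a gene and less of its RNA per cell cannot be told apart.

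Wars, which consumes tryptophan by loading it onto tRNA, had 1468, 1277 and 1266 counts in the IFN-gamma libraries 1, 2 and 3, against 227, 154 and 238 counts in untreated replicates 1, 2 and 3. Scaled for depth, these were 137, 142 and 150 CPM in IFN-gamma libraries, against 24.3, 20.9 and 24.9 CPM in untreated libraries. The lowest treated library lay far above the highest untreated one. The log2 fold change was 2.61 ± 0.09 (edgeR adjusted p = 4.3e-25), or 6.09-fold with a 95% interval of 5.36 to 6.92, the narrowest interval among the 3 members with the largest fold changes. Its SD was 4.69% of the mean in IFN-gamma libraries and 9.17% in untreated libraries.

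The change of Wars was set against the other tRNA synthetases. Of 19 tested cytosolic synthetases other than Wars, 8 were higher and 0 lower, with a median log2 fold change of 0.15, and the background is the 9.88% of all tested genes that were higher. The highest change among them was 0.45 ± 0.07 in Farsa (phenylalanine; edgeR adjusted p = 6.4e-06), followed by Kars (lysine) at 0.40 ± 0.07, Rars (arginine) at 0.39 ± 0.06 and Tars (threonine) at 0.33 ± 0.07. Sars (serine) had the highest CPM of that list, 444 ± 46.2 CPM in IFN-gamma libraries and 437 ± 25.8 CPM in untreated libraries, and a log2 fold change of 0.02 ± 0.06 (edgeR adjusted p = 0.854). The calls of Gars and Lars were lost in 4 and 6 of 14 alternative fits, and those of the other 6 held in all of them. Wars2, the mitochondrial enzyme for tryptophan, had 10.5 ± 3.23 CPM in IFN-gamma libraries and 7.60 ± 2.03 CPM in untreated libraries and did not pass (0.47 ± 0.24, edgeR adjusted p = 0.179). The number of Wars counts per 100 Wars2 counts was 1439, 1013 and 1918 in IFN-gamma replicates 1, 2 and 3, against 398, 211 and 366 in untreated replicates 1, 2 and 3. These groups did not overlap, and the exact two-sided permutation test gave p = 0.1 (adjusted p = 0.1), the smallest it can give.

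**Figure D3:**
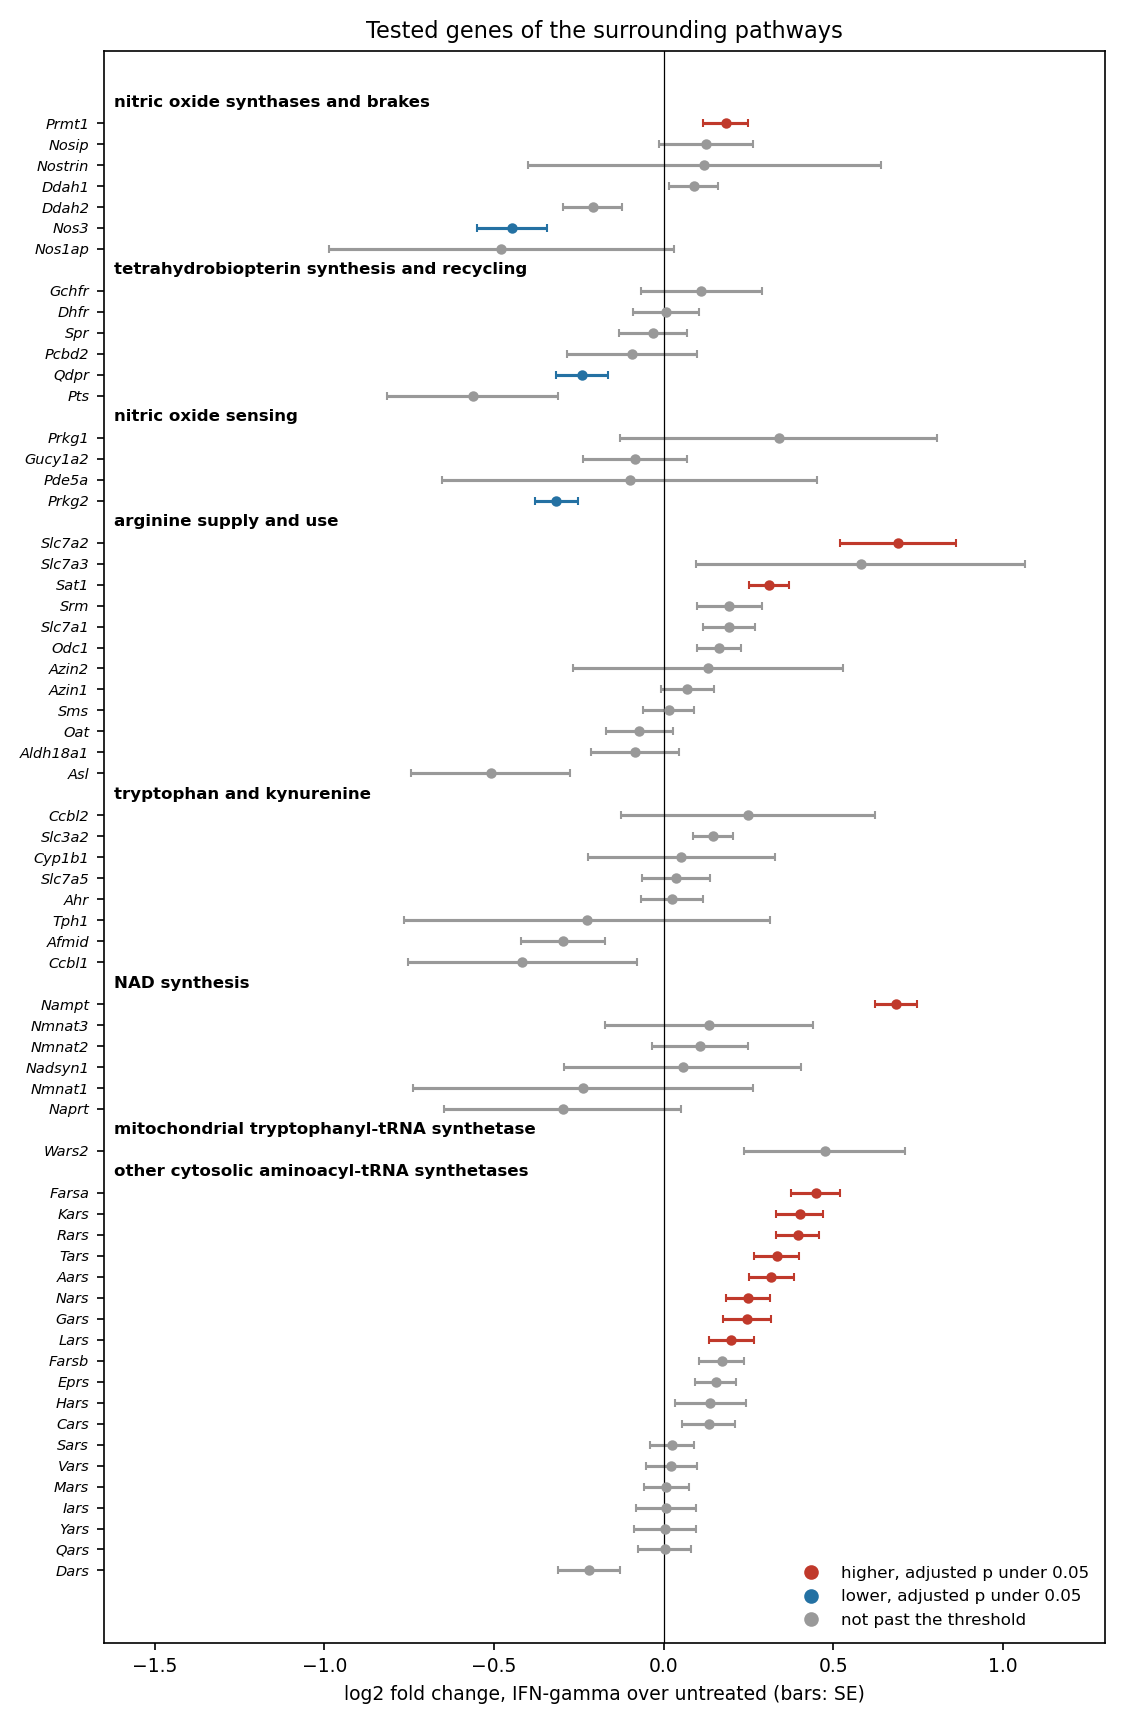
Log2 fold change (IFN-gamma over untreated, bars: SE) of the 63 tested genes in the lists around the 9 enzymes, by list and sorted within it; red is higher and blue lower at an adjusted p under 0.05, and grey did not pass. The 12 higher genes include 8 cytosolic tRNA synthetases, and all changes are smaller than those of Nos2, Ido2 and Wars.

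Over all lists of surrounding genes, 12 of 63 tested members were higher and 3 lower, with a median log2 fold change of 0.07, beside 9.88% higher and 7.56% lower over all genes tested. Of the 12 higher ones, 8 were the cytosolic tRNA synthetases described above. None of these 63 changed as much as Nos2, Ido2 or Wars, since the largest was 0.69 in Slc7a2.

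The 2 tested genes with the profile most like each member over the 6 libraries were found from the root-mean-square difference of log2 CPM, each gene centred on its own mean. They were Xaf1 and Serping1 for Nos2 (differences of 0.35 and 0.37), Tapbp and Ube2l6 for Ido2 (0.18 and 0.18), and H2-T22 and H2-T9 for Wars (0.089 and 0.093). For Gch1 they were Phlda1 and BC017643 (0.039 and 0.041), and for Arg2 they were Ogdh and Plekhg3 (0.027 and 0.030). The profile of each member mainly reflects the contrast of the groups. It was taken with a prior count of 2, which shrinks the changes of genes with few counts. The genes nearest to Nos2 (3.87) had fitted log2 fold changes of 3.53 and 3.42, and those nearest to Ido2 (3.06) had 2.63 and 2.68. Nearest therefore does not mean an equal change, and the differences were largest for Nos2. H2-T22 and H2-T9 belong to a family of closely similar genes, so how reads were divided among its members is uncertain.

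**Figure D4:**
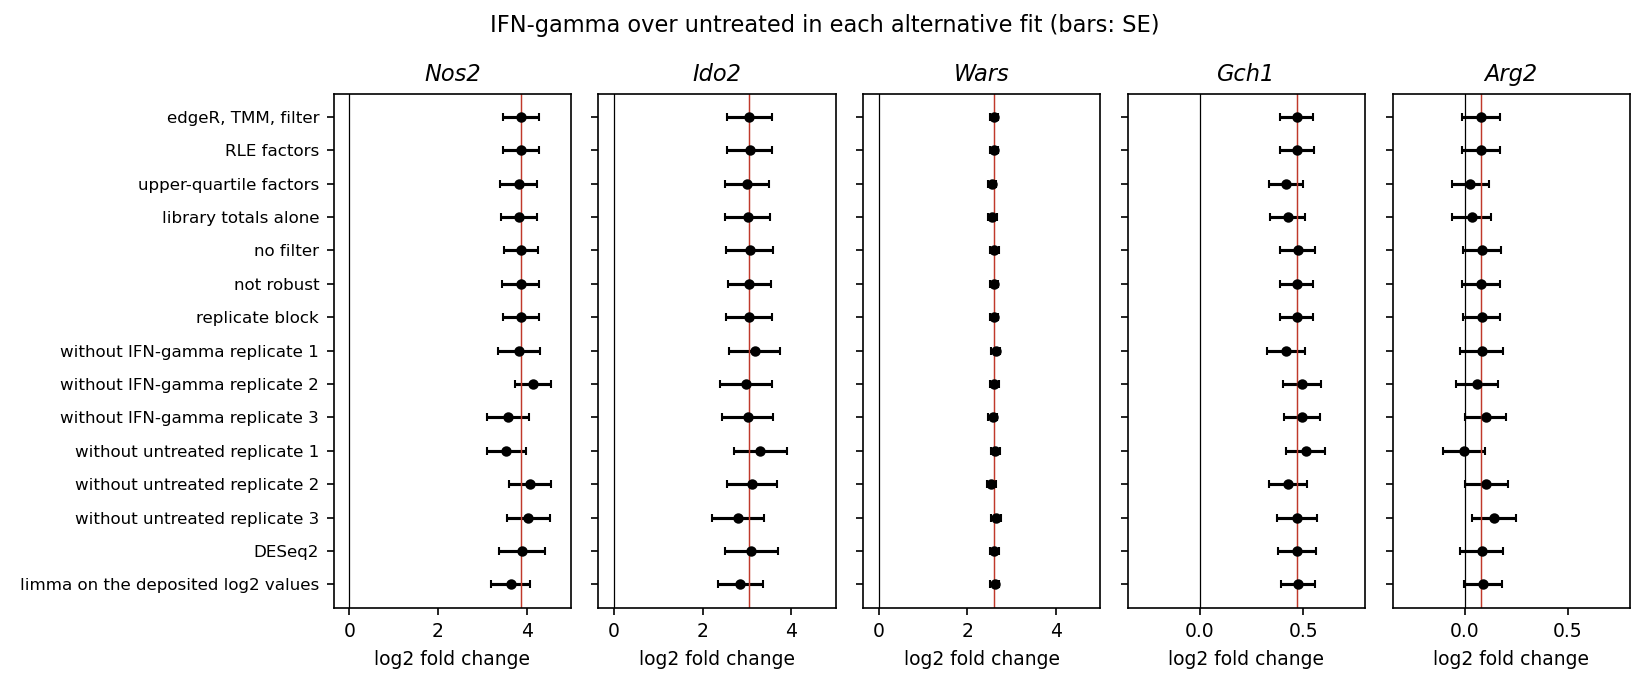
Log2 fold change (IFN-gamma over untreated) of the 5 tested enzymes under the fit used (top row, red line) and 14 alternatives (rows), with SE bars; the axes of Gch1 and Arg2 span a narrower range than the others. Nos2, Ido2, Wars and Gch1 stay above 0 in every row, and Arg2 lies within 0.15 of 0 in each.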

How the data were processed

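RNA was extracted with TRIzol, and the labels' protocols name 2 kits for every sample, 1 stranded with poly(A) selection and 1 for mRNA 3' ends, without saying which gave the counts. The submitters' processing notes list Bowtie2, edgeR and hg19, a human build, with no version or role, while the rows carry mouse gene symbols. The deposited table holds whole-number raw counts per gene, not normalized, and log2 normalized values made by the authors, per the file headers. The count test and all levels were computed from the raw counts, and the log2 values served in an alternative.

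The test was run on the counts in edgeR 4.0.16 and R 4.3.3 (filterByExpr, TMM factors, robust quasi-likelihood fit, no covariate, Benjamini-Hochberg adjustment over 12191 genes, threshold 0.05). Standard errors were derived from the F statistic. Few-count members were compared by the ratio of summed counts over library totals, with exact 95% intervals. Without molecular identifiers PCR reads are not independent, so intervals and limits cover counting error only. No 2 libraries agreed within sampling noise. The fit was checked on simulated counts. Alternatives were RLE, upper-quartile or no scaling factors, no filter, a fit without the robust option, DESeq2 1.42.0, limma 3.58.1 on the deposited log2 values, a replicate block, and leaving out each library.

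The members and lists were chosen with earlier results of these data known. Genes named from each surrounding list were the 4 with the smallest adjusted p among those past the threshold and the one with the highest CPM. Others (Nos1, Pts, Spr, Gchfr, Slc7a1, Asl, Odc1, Kmo, Haao, Il4i1, Tdo2, Afmid, Ahr, Ccbl1, Ccbl2, Gars, Lars, all cell type markers, Vti1b, Gm5424 and the genes of the closing section) were named after their values were seen.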

Additional observations from a re-analysis of the deposited data

How the results depend on the processing

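The count of members called was 4 higher and 0 lower in all 14 alternative fits. Over all genes in these fits, between 957 and 1298 were higher and between 653 and 1343 lower, of 12191 to 16818 tested. In the fit used, 9.88% of all tested genes were higher and 7.56% lower. Nos2 and Ido2 reached its count minimum through the treated libraries alone, so the steady count of 4 is no test of the list. The log2 fold change ranged from 3.55 to 4.15 for Nos2, from 2.80 to 3.30 for Ido2, from 2.54 to 2.66 for Wars and from 0.42 to 0.51 for Gch1, the extremes coming from fits that left out 1 library, except the lowest Gch1 value, which came with upper-quartile factors. Arg2, which did not pass in any fit, turned from 0.08 to -0.0032 without untreated replicate 1, its lowest library, and fits without 1 library gave from -0.0032 to 0.14. Over all genes, 957 were higher and 1343 lower with upper-quartile factors and 992 and 1236 with library totals alone, so that 41.6% and 44.5% of the called genes were higher, against 56.6% with TMM factors. Without 1 library the counts lay between 987 and 1298 higher and between 653 and 1014 lower. With the replicate number as a block, 1252 genes were higher and 974 lower, Nos2 had 3.87, Gch1 0.47, Ido2 3.05 and Wars 2.61, and no member's call changed. The labels do not pair the replicates, so the numbers were not taken to pair the samples. Deviations from the group means of same-numbered libraries had correlations of 0.0028, 0.041 and -0.0014, beside -0.028 to 0.028 for differently numbered ones. Whether same-numbered libraries shared a culture or batch was not tested. Ratios of Ass1, from 1.07 to 3.18 without 1 library, and of Arg1, from 0.244 to 0.728, rest on 17 counts each. For Ass1 the division of reads with Gm5424 was not tested either.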

Other observations

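Genes that sense nitric oxide were mostly scarce. Gucy1a3, a subunit gene of soluble guanylate cyclase, the receptor of nitric oxide, had 0 counts in all 6 libraries, and its partner Gucy1b3 had 0 counts in the IFN-gamma group and 1 in the untreated group. Gucy1a2 had 20.6 ± 1.85 CPM in IFN-gamma libraries and 21.7 ± 4.34 CPM in untreated libraries (log2 fold change -0.08 ± 0.15, edgeR adjusted p = 0.776). Of 4 tested genes of that list, 0 were higher and 1 lower, beside 9.88% higher and 7.56% lower over all genes tested. Prkg2, which encodes a cyclic GMP-dependent protein kinase, was lower, with 226 ± 16.4 CPM in IFN-gamma libraries and 281 ± 11.2 CPM in untreated libraries (log2 fold change -0.32 ± 0.06, edgeR adjusted p = 0.00025), a call held in all 14 alternatives.

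NAD is an end product of the kynurenine route and can also be made by salvage of nicotinamide. Of 6 tested genes of NAD synthesis, 1 was higher and 0 lower, near the 9.88% higher and 7.56% lower over all genes tested. Nampt, the rate-limiting enzyme of the salvage route, rose to 318 ± 19.3 CPM in IFN-gamma libraries, against 198 ± 3.36 CPM in untreated libraries (log2 fold change 0.69 ± 0.06, edgeR adjusted p = 9.1e-12), a call held in all 14 alternatives. Qprt, which links the kynurenine route to NAD, had 0 counts in the IFN-gamma group and 2 in the untreated group.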
